A study of Mus musculus with 9 samples.

Results

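The genes described here are Trp53, which encodes the transcription factor p53, and 9 of its known target genes: Cdkn1a, Ccng1, Trp53inp1, Bbc3, Zmat3, Phlda3, Mdm2, Sesn2 and Gadd45a. They were followed in tumours of B16-F10, a mouse melanoma cell line, with altered levels of HDC (L-histidine decarboxylase), which converts histidine to histamine. Their probes on the array were found by current symbol or synonym and kept when at least 3 of the 9 arrays had a tumour signal (Cy5) well above background. All 15 probes of the 10 genes were kept, out of 26870 probes and 13435 named genes kept on the whole array. The genes were chosen by their values in HDC-A tumours against the other groups, so every difference that involves HDC-A is given for them as a description, with no test.

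Tumours came from 3 variants of the line: HDC-A, with reduced histamine production, HDC-M, with unmodified production, and HDC-S, with increased production. Each group had 6 tumours, whose RNA was joined at random into 3 pools of 2 tumours, 1 array per pool. Each Cy5-labelled pool was hybridised beside the same Cy3-labelled reference, RNA of HDC-M cells grown in culture, and no dyes were swapped. Values are log2 ratios of tumour over this reference: a positive value is brighter in tumour than in culture, where a dye effect cannot be told apart from a real difference, while a difference between tumour groups is free of any dye effect common to all arrays. Each group stands for 1 line variant, so the level of histamine production and other properties of a line cannot be told apart. The time of growth, the host mice and the way HDC was altered are not given in the sources used here.

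Cy5 was well above background at 58% to 69.7% of the probe spots of an array, and Pearson's r across probes was 0.899 to 0.95 between arrays of a group and 0.862 to 0.922 between arrays of different groups. The arrays were scanned on 2 days, pools 1 and 2 of every group on the first and pool 3 on the second. Of 9 listed melanocyte markers 7 were measured, and all 7 were above background on every array. Their mean log2 ratio was 0.38 to 0.45 in HDC-A, 0.52 to 0.77 in HDC-M and 0.28 to 0.53 in HDC-S. Between HDC-A and HDC-M 5 of the 7 lay apart lower in HDC-A, against 10.7% of kept probes. None passed (limma, adjusted p) on the brightest probe of its gene. A dimmer probe of the marker Dct (A_52_P550629) did pass, lower in HDC-A by -0.88 (limma adjusted p = 0.00406). That probe was also higher in HDC-S than in HDC-A, by 0.81 (limma adjusted p = 0.00234). On the brightest probes, 5 of the 7 were positive between HDC-S and HDC-A, with a median log2 fold of 0.04, and 1 passed. Tyr, the tyrosinase of pigment synthesis, was lower in HDC-S (-0.48, limma adjusted p = 0.0121), though not without HDC-S replicate 3. The part of these differences in those of the p53 targets was not tested. Array 3 of HDC-M stood apart in 1 respect: when ratios were only centred on the array median, with no correction along intensity, the median of its kept probes was 0.53, against 0.11 to 0.2 on the other 8 arrays. In bulk tumour RNA, fewer cells of a type and less RNA per cell cannot be told apart.

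p53 is a transcription factor that is held at a low level by the ubiquitin ligase Mdm2 and accumulates after DNA damage, oncogene activity or other stress. It then raises genes that stop the cell cycle, repair DNA, alter metabolism or start apoptosis, and among them Mdm2 itself, which closes a feedback loop. Much of its control lies in the stability of the protein, so RNA of Trp53 need not follow RNA of the targets. In melanoma the pathway is known as a barrier to the growth of melanocytes that carry an active oncogene.

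p53 binds DNA as a tetramer at a pair of decamers, each made of purines, a core of C, A or T bases and G, and pyrimidines, a pattern that reads the same on both strands. Promoter windows from RefSeq (build GRCm38.p6, from 250 bases before to 50 after a start) were held for 8 of the 10 genes, all but Zmat3 and Trp53inp1. An exact decamer lay in a window of 5 of these 8 genes (Cdkn1a, Ccng1, Mdm2, Trp53 and Gadd45a), against 9.55% of the 27025 genes with a window and 12 of 84 other p53 target genes. A pair of adjacent decamers with no gap and at most 1 mismatch, a criterion chosen after the windows were seen, lay in those of Cdkn1a and Ccng1, against 0.11% of all genes. A match describes letters only, and other sites can lie outside the window.

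3 windows are shown, the 2 with an adjacent pair and that of Mdm2, for its part in the feedback loop, with decamers and adjacent pairs in capitals. They lie at chr17:29090729-29091028 on the plus strand, chr11:40755237-40755536 on the minus strand and chr10:117710709-117711008 on the minus strand.
Cdkn1a: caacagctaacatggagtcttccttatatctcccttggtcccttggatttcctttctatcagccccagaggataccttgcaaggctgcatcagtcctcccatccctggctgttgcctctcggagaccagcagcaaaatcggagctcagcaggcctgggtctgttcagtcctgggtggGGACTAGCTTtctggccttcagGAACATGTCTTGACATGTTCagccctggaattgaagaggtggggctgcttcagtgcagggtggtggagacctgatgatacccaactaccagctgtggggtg
Ccng1: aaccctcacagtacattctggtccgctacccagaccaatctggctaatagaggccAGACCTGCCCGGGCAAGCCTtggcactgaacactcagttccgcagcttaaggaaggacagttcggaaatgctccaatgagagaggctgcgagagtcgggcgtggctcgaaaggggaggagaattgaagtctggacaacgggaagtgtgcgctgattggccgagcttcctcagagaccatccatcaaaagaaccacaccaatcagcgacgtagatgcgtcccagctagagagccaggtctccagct
Mdm2: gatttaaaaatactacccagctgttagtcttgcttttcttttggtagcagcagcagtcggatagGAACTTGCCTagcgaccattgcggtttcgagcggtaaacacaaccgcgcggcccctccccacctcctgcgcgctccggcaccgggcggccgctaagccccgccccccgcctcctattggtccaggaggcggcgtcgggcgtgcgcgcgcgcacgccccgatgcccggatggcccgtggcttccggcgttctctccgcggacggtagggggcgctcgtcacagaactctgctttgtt
The pair in the Cdkn1a window, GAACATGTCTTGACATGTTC, begins 51 bases before the start of an upstream transcript, and a further single decamer lies before it. The other Cdkn1a window, at the more downstream start, holds no exact decamer. The pair in the Ccng1 window is AGACCTGCCCGGGCAAGCCT, and the single Mdm2 decamer begins 186 bases before the start. Trp53 and Gadd45a, whose windows are not shown, hold the single decamers GGACTTGCCC and GGGCTAGCCC.

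With 1 probe per gene, the brightest, 8 of the 10 genes were higher in all HDC-A pools than in all HDC-M pools. These were Cdkn1a, Ccng1, Trp53inp1, Bbc3, Zmat3, Phlda3, Mdm2 and Gadd45a, and Sesn2 and Trp53 overlapped. Of all kept probes, 10.2% lay apart in this direction. The median log2 fold of the 10 genes was 0.48, against 0.0045 over all named genes, and 1.44% of all kept probes had an adjusted p below 0.05 in either direction. Because HDC-A values chose these genes, nothing follows from these counts for p53 targets in general. The 8 genes also rested on the normalisation. Under median centring none of the 10 lay apart, since array 3 of HDC-M then had the highest ratios of its group, with Cdkn1a at 0.74 against -0.09 and -0.01 on the other HDC-M arrays. Of all kept probes, 3.71% then lay apart in this direction. Without array 3 of HDC-M, median centring left 7 genes apart, against 11.7% of kept probes, with fewer HDC-M arrays to lie apart from. Under each of 6 other ways of making the ratios it was 7 or 8 genes, against 9.09% to 10.2% of kept probes.

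**Figure D1:**
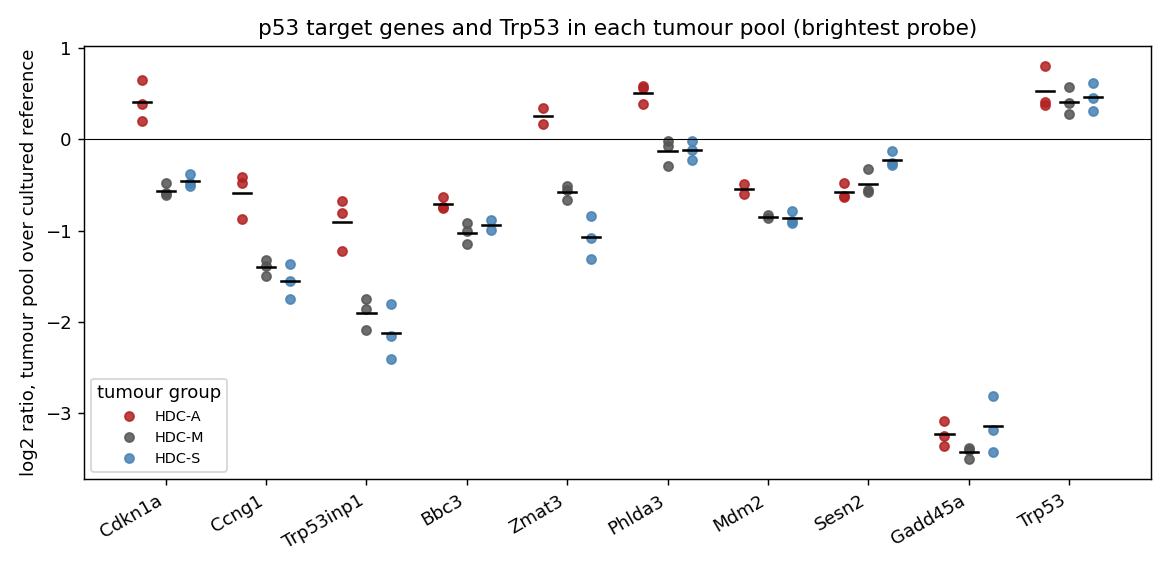
Log2 ratio of tumour pool over cultured reference (vertical axis) for the brightest probe of each gene, with 1 point per pool and a bar at the mean of each group. The HDC-A points of Cdkn1a, Ccng1, Trp53inp1, Zmat3 and Phlda3 sit above those of both other groups, while those of Sesn2, Gadd45a and Trp53 reach into at least 1 other group.

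Cdkn1a encodes p21, an inhibitor of cyclin-dependent kinases and the main mediator of p53-driven arrest. In HDC-A its log2 ratios were 0.39, 0.20 and 0.65. In HDC-M they were -0.48, -0.59 and -0.61, and in HDC-S -0.38, -0.48 and -0.52. It was thus above the reference in each HDC-A pool and below it in each of the other 6. The HDC-A mean of 0.41 ± 0.22 (SD, n = 3) lay 0.98 (SE 0.10) above that of HDC-M, which is 1.97-fold. The difference was 0.84 on the first scan day and 1.26 on the second, and it stayed between 0.58, under median centring, and 1.08 in 22 alternatives. The sign against the reference was less firm. Under median centring pool 3 of HDC-M, at 0.74, and pool 1 of HDC-S, at 0.12, were also above the reference.

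Ccng1, cyclin G1, is a p53 target that acts back on Mdm2 through a phosphatase. Its brighter probe (A_52_P612803) read -0.41, -0.88 and -0.48 in HDC-A. In HDC-M it read -1.50, -1.32 and -1.39, and in HDC-S -1.37, -1.75 and -1.55. HDC-A was the highest group with no overlap, by 0.81 (SE 0.13) over HDC-M. The other probe (A_51_P161612) differed by 0.65 (SE 0.12), also with no overlap. Under median centring the differences were 0.40 and 0.27, and after scaling between arrays 1.20 and 1.16. Both probes were below the reference on all 9 arrays.

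Trp53inp1 encodes a nuclear protein, induced by stress, that promotes apoptosis and autophagy. Its brighter probe (A_51_P175580) read -0.68, -1.22 and -0.81 in HDC-A. The HDC-M pools were at -1.86, -1.75 and -2.09, and the HDC-S pools at -1.81, -2.41 and -2.16. This was a difference of 1.00 (SE 0.18) between HDC-A and HDC-M, or 2.00-fold. The dimmer probe (A_52_P503387) differed by 0.49 (SE 0.13), and its lowest HDC-A pool, at -0.40, lay above the highest HDC-M pool, at -0.58. Under median centring the brighter probe differed by 0.57 and after scaling by 1.58, and the dimmer one ranged from 0.33, without HDC-A replicate 1, to 0.95, with ratios of the scanner software. The size of the difference therefore depended on the probe and the processing.

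Zmat3 encodes a zinc finger protein that binds RNA. It read 0.35 and 0.17 in the HDC-A pools with a value, its spot in pool 2 being marked as an outlier. In HDC-M it read -0.55, -0.51 and -0.67, and in HDC-S -0.84, -1.31 and -1.08. All 3 groups lay apart, in the order HDC-A, HDC-M, HDC-S. HDC-A was 0.84 (SE 0.13) above HDC-M, fitted from 2 and 3 arrays, and 0.54 under median centring. A further probe described only by the full name of the gene (A_52_P33039) was not counted. It was dim, with Cy3 signals 0.93 to 1.01 times as bright as the negative controls (median). On it the groups overlapped, at 0.09 for HDC-A minus HDC-M and -0.02 for HDC-S minus HDC-A.

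Phlda3 encodes a small protein that keeps the kinase Akt from the membrane. The HDC-A pools were at 0.39, 0.56 and 0.58. Those of HDC-M were at -0.01, -0.07 and -0.29, and those of HDC-S at -0.01, -0.23 and -0.11. The HDC-A mean was 0.64 (SE 0.09) higher than that of HDC-M, and HDC-M and HDC-S overlapped nearly completely. Under median centring the difference was 0.18.

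Bbc3 encodes Puma, a BH3-only protein that starts apoptosis, and it differed less. It read -0.64, -0.74 and -0.75 in HDC-A, -0.92, -1.01 and -1.15 in HDC-M, and -1.0 and -0.88 in the HDC-S pools with a value. HDC-A was 0.32 (SE 0.08) above HDC-M, or 1.25-fold, and the sign turned to -0.08 under median centring.

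Mdm2, the ligase that limits p53, showed small differences on both probes. The brighter probe (A_52_P469842) had a value in 2 pools each of HDC-A (-0.60 and -0.48) and HDC-M (-0.86 and -0.83), with HDC-S at -0.92, -0.78 and -0.90. HDC-A was 0.31 (SE 0.08) above HDC-M, and -0.15 under median centring. The dimmer probe (A_51_P201346) differed by 0.22 (SE 0.08), and its HDC-A pool at -0.03 lay inside the range of HDC-S.

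Gadd45a, a growth arrest gene induced by DNA damage, was far below the reference in every tumour pool. Its log2 ratios were -3.36, -3.08 and -3.25 in HDC-A, -3.39, -3.51 and -3.41 in HDC-M, and -3.43, -2.82 and -3.18 in HDC-S. HDC-A and HDC-M lay apart only narrowly, and the difference of 0.20 (SE 0.14) ranged from -0.23 under median centring to 1.32 after scaling the arrays to a common spread. Its sign and size were therefore not settled by these arrays.

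Sesn2 encodes sestrin 2, which restrains mTORC1 and is a target of both p53 and ATF4. It did not share the pattern of the genes above: HDC-A read -0.62, -0.48 and -0.63, HDC-M -0.58, -0.55 and -0.32, and HDC-S -0.29, -0.13 and -0.26. HDC-A and HDC-M overlapped, with a difference of -0.09 (SE 0.08), and HDC-S was the highest group. HDC-S lay 0.35 (SE 0.08) above HDC-A with no overlap.

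Trp53 itself had 3 probes, and on each of them all 3 groups overlapped. The brightest (A_52_P781398) was above the reference, at 0.38, 0.81 and 0.41 in HDC-A, 0.39, 0.28 and 0.57 in HDC-M, and 0.31, 0.62 and 0.45 in HDC-S. A_52_P491849 was below the reference on all 9 arrays, with group means from -0.45 to -0.39, so the probes disagreed on the sign of the tumour to culture ratio. A_52_P133016, named through the synonym p53 in its description, was dim, with Cy3 signals only 1.07 to 1.16 times as bright as the negative controls (median). The differences between HDC-A and HDC-M were 0.12, -0.05 and -0.03 on the 3 probes.

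**Figure D2:**
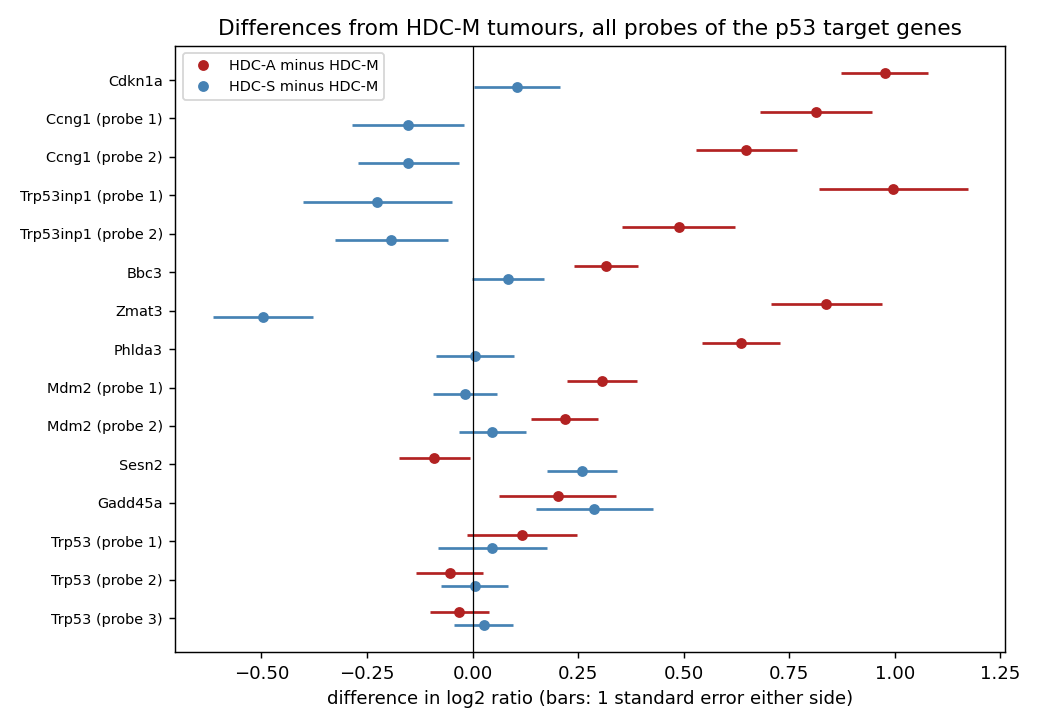
Difference in log2 ratio from HDC-M (horizontal axis) of HDC-A and HDC-S for all 15 probes, with bars of 1 standard error either side, probe 1 being the brightest of a gene. Cdkn1a and Trp53inp1 probe 1 have the highest HDC-A values, at 0.98 and 1.00, while the HDC-S values lie between -0.50 and 0.29.

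Between HDC-S and HDC-M none of the 10 genes passed (limma, adjusted p below 0.05), against 0.681% of all kept probes and 0.968% of named genes. The genes were chosen by HDC-A against both of these groups. The values of HDC-M and HDC-S therefore entered the choice, and this comparison is not free of it. At an unadjusted p below 0.05 there were 2 of the 10 genes, Zmat3 and Sesn2, against 16.3% of named genes. Zmat3 was lower in HDC-S by -0.50 (SE 0.12, adjusted p = 0.112), with no overlap, and Sesn2 higher by 0.26 (SE 0.08, adjusted p = 0.197), also with no overlap, while 10.4% and 11.9% of kept probes lay apart lower and higher. For Cdkn1a the difference was 0.11, with a 95% confidence interval from -0.13 to 0.34, and for Phlda3 it was 0.0056, from -0.20 to 0.21. For Trp53inp1 the interval ran from -0.62 to 0.17, and for the brighter Ccng1 probe from -0.45 to 0.15. HDC-S was therefore not shown to differ from HDC-M in any of these genes, nor shown to be alike.

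Between HDC-S and HDC-A, 7 of the 10 genes were lower in all HDC-S pools and Sesn2 was higher, against 11.1% and 13.3% of kept probes that lay apart lower and higher. The 7 genes were those above without Gadd45a. The widest differences were those of Zmat3 at -1.33 (SE 0.13), Trp53inp1 at -1.22 (SE 0.18), Ccng1 at -0.97 (SE 0.13) and Cdkn1a at -0.87 (SE 0.10). This comparison shares the HDC-A arrays with that of HDC-A against HDC-M, so the 2 are not independent. Median centring left 6 of the 7 apart, against 8.13% of kept probes, as did keeping outlier spots, against 10.9%.

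To see how far other targets of p53 shared this pattern, 101 further genes were listed by role from general knowledge, of which 88 were measured. Between HDC-A and HDC-M, 4 of the 88 rose and 0 fell in HDC-A (limma, adjusted p over all kept probes), against 2.01% of named genes called in either direction. A positive fold was found for 57 of the 88, against 51.3% of named genes, and the median log2 fold was 0.07. Under median centring 29 of the 88 were positive and the median was -0.12, with a shift of -0.11 in the median of all kept probes. At an unadjusted p below 0.05 there were 20 of the 88, against 17.9% of named genes.

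The 4 genes that rose were Psrc1, Slc19a2, Ninj1 and Crip2. Psrc1, a microtubule protein, read 1.38, 0.92 and 1.36 in HDC-A and 0.50, 0.42 and 0.57 in HDC-M, a rise of 0.72 (SE 0.13, adjusted p = 0.0383). Slc19a2, a thiamine transporter, read -0.55, -0.77 and -0.58 in HDC-A and -1.23, -1.27 and -1.23 in HDC-M, a rise of 0.61 (SE 0.07, adjusted p = 0.00827). Both were also lower in HDC-S than in HDC-A, by -1.02 (adjusted p = 0.00661) and -0.63 (adjusted p = 0.00403). Ninj1, a cell surface protein of membrane rupture, rose by 0.48 (SE 0.09, adjusted p = 0.0436), and Crip2, a LIM domain protein, by 0.40 (SE 0.07, adjusted p = 0.037). Of the 9 fits that each left out 1 array, Slc19a2 passed in 8, Psrc1 in 2 and Ninj1 and Crip2 in none, and the count of the 88 that passed was 0 to 2.

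By role, of 6 cell cycle arrest genes 5 were positive and 1 rose, and of 22 signalling and secreted genes 16 were positive and 1 rose. At an unadjusted p below 0.05 (limma), in either direction, there were 4 of the 6 and 5 of the 22, against 17.9% of named genes. The negative arrest gene, Plk3, was lower in all HDC-A pools than in all HDC-M pools, by -0.45 (limma adjusted p = 0.0766). Of 13 genes of other roles 10 were positive and 2 rose, with 4 at an unadjusted p below 0.05. Of 18 metabolism and autophagy genes 10 were positive and none passed, with 5 at an unadjusted p below 0.05. No difference between roles was tested. Of 14 apoptosis genes 9 were positive, none passed and none lay apart between HDC-A and HDC-M, and at an unadjusted p below 0.05 there were 0. Among them Bax, the pore former of mitochondria, differed by 0.12 (adjusted p = 0.73), Fas, a death receptor, by 0.22 (adjusted p = 0.525) and Pmaip1, the BH3-only protein Noxa, by 0.19 (adjusted p = 0.761), 3 genes picked for their role after their values were seen. The apoptosis genes with the smallest p in any comparison were Perp (HDC-S against HDC-M -2.31, adjusted p = 0.182) and Siva1 (HDC-S against HDC-A -0.24, adjusted p = 0.206). Perp is a desmosome protein of epidermis, and its ratios ran from -0.08 to 4.54 over the arrays while the mean of the keratinocyte markers ran from 0.12 to 3.51. Of 9 DNA repair genes none passed, the smallest p being those of Xpc (HDC-S against HDC-A -0.21, adjusted p = 0.0673) and Polk (HDC-A against HDC-M 0.28, adjusted p = 0.142), with 2 genes at an unadjusted p below 0.05 between HDC-A and HDC-M. Of 6 feedback and RNA control genes none passed, with Rbm38 at 0.19 (adjusted p = 0.459) and Fbxo22 at -0.10 (adjusted p = 0.567), and none had an unadjusted p below 0.05.

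**Figure D3:**
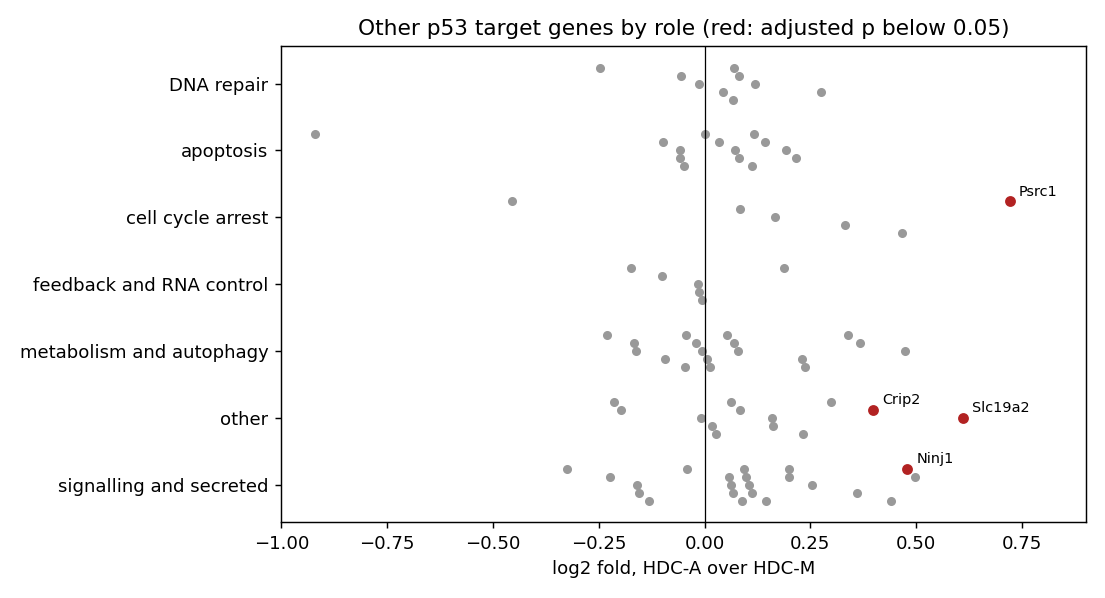
Log2 fold of HDC-A over HDC-M (horizontal axis) for the 88 measured genes of the other p53 target lists, with 1 point per gene in a row for each role and small vertical offsets only to separate points. The genes that pass, in red, are Psrc1 at 0.72, Slc19a2 at 0.61, Ninj1 at 0.48 and Crip2 at 0.40, and the apoptosis, DNA repair, metabolism and feedback rows hold none.

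Between HDC-S and HDC-M, 0 of the 88 other targets passed, with 10 at an unadjusted p below 0.05, which 16.3% of named genes had. Between HDC-S and HDC-A, 3 were higher in HDC-S and 3 lower, against 6.74% of named genes and 5.26% of kept probes called. Fdxr, the mitochondrial ferredoxin reductase, was higher by 0.41 (adjusted p = 0.0084), Cmbl, a hydrolase, by 0.34 (adjusted p = 0.022) and Cd82, a tetraspanin, by 0.49 (adjusted p = 0.0498). Ephx1, an epoxide hydrolase, was lower by -0.48 (adjusted p = 0.0314), as were Psrc1 and Slc19a2. Without an array, Fdxr, Psrc1 and Slc19a2 passed in all 9 fits, Cmbl in 5, Cd82 in 3 and Ephx1 in 2.

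Among 17 measured regulators of p53, none passed in any comparison. With HDC-A against HDC-M 14 of the 17 were negative, none at an unadjusted p below 0.05, while there were 3 in HDC-S against HDC-M and 2 in HDC-S against HDC-A, where 16.3% and 22.6% of named genes had one. The smallest p were those of Trp53bp1, a damage-response protein, and Ep300, an acetyltransferase, at 0.24 (adjusted p = 0.119) and 0.18 (adjusted p = 0.153) in HDC-S against HDC-A. A dimmer probe of each had the opposite sign there, at -0.05 for Trp53bp1 and -0.16 for Ep300. Cdkn2a, whose p19Arf product blocks Mdm2, had a probe, but 0 arrays showed it well above background.

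Of 11 paralogues of the 10 genes, none passed between HDC-A and HDC-M or between HDC-S and HDC-M, with 4 at an unadjusted p below 0.05 in each, against 17.9% and 16.3% of named genes. Cdkn1c, the p57 relative of Cdkn1a, read 0.24, 0.65 and 0.40 in HDC-A and -0.16, -0.08 and -0.10 in HDC-S, a difference of -0.54 (SE 0.10, adjusted p = 0.0149), which passed in 7 of the 9 fits that left out an array. Its HDC-M pools, at 0.18, 0.13 and 0.08, lay between both groups.

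Genes that p21 represses through the DREAM complex and E2F were listed as the downstream side of Cdkn1a, and 37 of 39 were measured. Between HDC-A and HDC-M 32 of the 37 were negative, with a median log2 fold of -0.14, 0 passed and 11 had an unadjusted p below 0.05, against 17.9% of named genes. The pools of 16 of the 37 lay apart lower in HDC-A and those of 0 higher, against 10.7% and 10.2% of kept probes. A negative fold was also found for 28 of the 37 between HDC-S and HDC-M, where 0 passed and 8 had an unadjusted p below 0.05, against 16.3%. There too 16 lay apart lower, in HDC-S, and 2 higher, against 10.4% and 11.9% of kept probes. Between HDC-S and HDC-A 4 of the 37 passed, against 6.74% of named genes. Cdc6 and Mcm5, of replication licensing, were higher in HDC-S by 0.37 (adjusted p = 0.0486) and 0.40 (adjusted p = 0.0349), and Ccnb1 and Foxm1, of mitosis, were lower by -0.43 (adjusted p = 0.0462) and -0.46 (adjusted p = 0.0166). A dimmer Cdc6 probe had the opposite sign there, at -0.15 (limma adjusted p = 0.825), while the dimmer Ccnb1 probes were at -0.39 and -0.33. Of the 9 fits without an array, Foxm1 passed in 6, Mcm5 in 2 and Cdc6 and Ccnb1 in 1 each.

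Sesn2 is shared with ATF4, the factor of the amino acid and endoplasmic reticulum stress response, and 16 other ATF4 genes were listed for comparison. Between HDC-S and HDC-A all 16 were positive and 7 rose in HDC-S, where 6.74% of named genes were called in either direction. The 7 became 0 under median centring or after scaling between arrays, and 4 with ratios of the scanner software or the authors' value table. Of the 16, 14 were positive after scaling and all 16 in the others of these settings. Asns, asparagine synthetase, read -1.76, -1.62 and -1.67 in HDC-S and -2.39, -2.63 and -2.56 in HDC-A, a rise of 0.85 (SE 0.07, adjusted p = 0.00234). Atf4 itself rose by 0.69 (adjusted p = 0.00794), Trib3, a pseudokinase, by 0.84 (adjusted p = 0.00765), Chac1, which degrades glutathione, by 0.98 (adjusted p = 0.0171) and Vldlr, a lipoprotein receptor, by 0.96 (adjusted p = 0.028). Mthfd2, of mitochondrial folate metabolism, rose by 0.48 (adjusted p = 0.0195), and Aldh18a1, of proline synthesis, by 0.26 (adjusted p = 0.0428). Between HDC-A and HDC-M, Asns fell by 0.45 (adjusted p = 0.0297), Slc7a5, an amino acid transporter, by 0.68 (adjusted p = 0.0453) and Aldh18a1 by 0.31 (adjusted p = 0.0453) in HDC-A, and 15 of 16 were negative, a count that was 6 of 16 after scaling between arrays. Asns turned to 0.30 in the same setting. Between HDC-S and HDC-M, Trib3 alone of the 16 rose, by 0.65 (adjusted p = 0.049). A dimmer Trib3 probe did not pass there, at 0.34 (limma adjusted p = 0.185), but passed between HDC-S and HDC-A, at 0.48 (limma adjusted p = 0.033). Without an array, the differences of Asns, Atf4 and Trib3 between HDC-S and HDC-A passed in all 9 fits, that of Chac1 in 8, those of Mthfd2 and Vldlr in 5 and that of Aldh18a1 in 1. The calls that involve HDC-M were less firm: Asns passed in 3 of the 9, Slc7a5 in 1, and Aldh18a1 and Trib3 in 0. Sesn2, like Asns, Atf4 and Trib3, was higher in HDC-S than in HDC-A, while Cdkn1a was lower. Between HDC-A and HDC-M Sesn2 overlapped, and its rise in HDC-S over HDC-M did not pass (limma, adjusted p = 0.197). The part of ATF4 or p53 in the level of Sesn2 was not tested.

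By Pearson's r over the 9 arrays, as a description, the genes most like Cdkn1a among 12687 were Lxn (0.982), Txndc15 (0.98), Slc19a2 (0.979), Ltbr (0.974) and Lhpp (0.973), and 132 genes had r above 0.9. Of the other genes described here that had a value on every array, Phlda3 ranked 46 with 0.94, Ccng1 ranked 61 with 0.931 and Trp53inp1 ranked 90 with 0.919. Trp53, Gadd45a and Sesn2 had r of 0.122, 0.118 and -0.594. The points share 9 arrays and 1 reference, and such values largely restate that HDC-A was the group that differed.

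Markers of host tissue were also measured, and none of the muscle, keratinocyte and fibroblast markers passed in any comparison. Markers of skeletal muscle, 11 of 12 measured, had mean log2 ratios of 1.95 to 3.42 in HDC-A, 1.53 to 2.21 in HDC-M and 0.82 to 2.67 in HDC-S, with all 11 positive between HDC-A and HDC-M. Their median log2 fold there was 0.89, and 4 had an unadjusted p below 0.05 (limma), against 17.9% of named genes. Between HDC-S and HDC-A all 11 were negative, with a median of -1.10 and 3 at an unadjusted p below 0.05, against 22.6%. Their summed Cy5 intensity ran from 7138 to 27390 in HDC-A, from 4623 to 14540 in HDC-M and from 2106 to 15290 in HDC-S. The HDC-A pool with the highest muscle mean, pool 2 at 3.42, had the lowest Cdkn1a value of its group, 0.20, and pool 3, with the lowest muscle mean at 1.95, had the highest, 0.65. In HDC-M the pool with the highest muscle mean, pool 1 at 2.21, had the highest Cdkn1a value, -0.48, and in HDC-S that with the highest muscle mean, pool 2 at 2.67, had the middle one. Keratinocyte markers, 9 of 10 measured, averaged 1.36 to 2.64 in HDC-A, 2.02 to 3.51 in HDC-M and 0.12 to 1.36 in HDC-S, with summed Cy5 intensities of 3006 to 10600, 9772 to 29310 and 921.3 to 4221. All 9 were lower in HDC-S than in HDC-M, 8 of them at an unadjusted p below 0.05 (limma), against 16.3% of named genes. Of the 9, 5 lay apart lower in HDC-S, against 10.4% of kept probes. Fibroblast markers, 8 of 8 measured, averaged 2.20 to 3.79, 2.41 to 2.70 and 2.11 to 3.18, with summed intensities of 8747 to 40940, 12860 to 17640 and 7411 to 20160. All measured markers of these 3 lists were well above background on every array, except 3 keratinocyte markers on array 1 of HDC-S. Macrophage markers averaged 1.91 to 2.74, 1.39 to 2.40 and 2.09 to 2.60, endothelial markers 0.99 to 1.52, 0.75 to 1.15 and 0.87 to 1.02, T and NK cell markers 0.10 to 0.55, 0.04 to 0.37 and 0.29 to 0.32, and granulocyte markers 0.34 to 0.80, 0.08 to 2.20 and 0.41 to 1.07, in the same order of groups, and none of these markers passed. The part of host cells in the differences of the p53 targets was not tested.

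**Figure D4:**
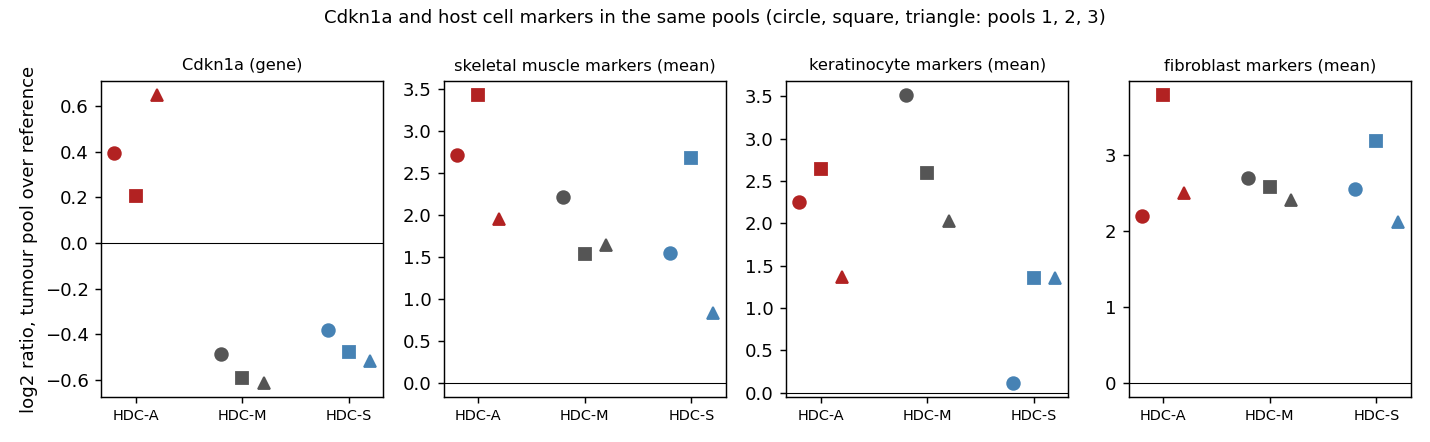
Log2 ratio over the reference of Cdkn1a (first panel) and mean log2 ratio of the skeletal muscle, keratinocyte and fibroblast markers (other panels) in the same 9 pools, the symbol giving the pool number within a group and each panel having its own vertical scale. Cdkn1a separates HDC-A from the other groups, while the ranges of the muscle and fibroblast markers overlap among all 3. The keratinocyte means of HDC-S lie below those of HDC-M and, narrowly (1.3587 against 1.3642), below those of HDC-A, while HDC-A and HDC-M overlap.

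**Figure D5:**
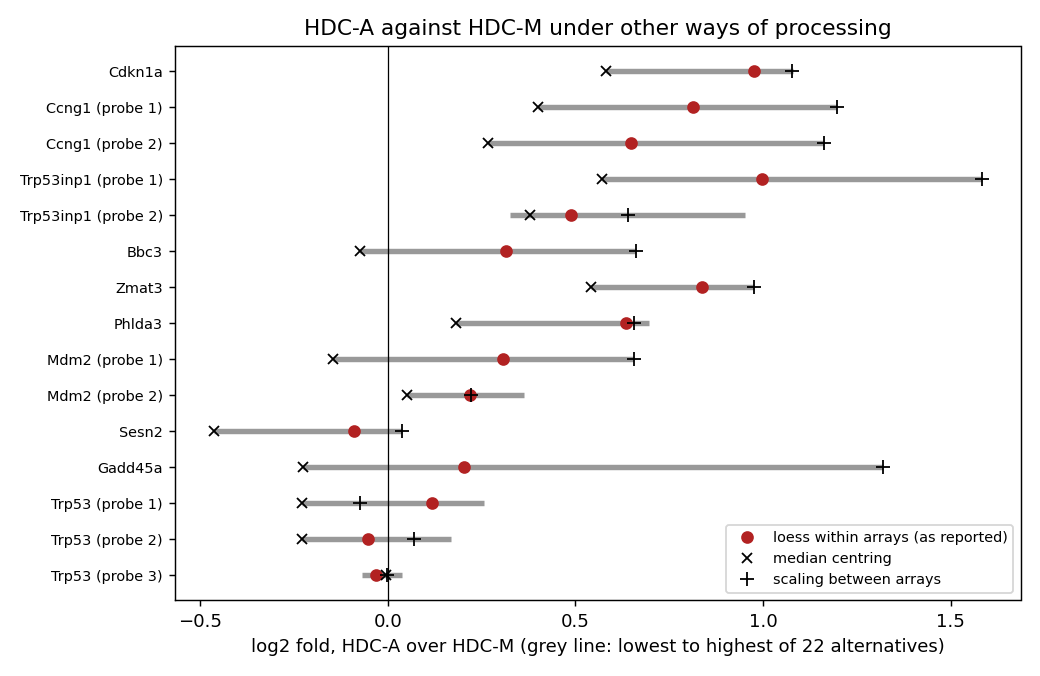
Log2 fold of HDC-A over HDC-M (horizontal axis) for all 15 probes, as reported (red point) and from the lowest to the highest of 22 alternatives (grey line), with median centring and scaling marked. Cdkn1a, Ccng1, Trp53inp1, Zmat3 and Phlda3 keep a positive sign throughout, whereas Bbc3, Gadd45a, Sesn2, the first probe of Mdm2 and all probes of Trp53 change sign.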

How the data were processed

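RNA of 9 pools of B16-F10 tumours was measured on 2-colour Agilent mouse arrays. Per the file headers, the deposited scanner files hold intensity values (mean signal and median local background of each spot and dye), written by Agilent Feature Extraction 8.5.1.1, and other columns that mark spot type, saturation, outliers and spots well above background. The authors' value table holds log10 ratios of Cy5 over Cy3, equal within 1e-06 to the deposited log10 ratio column at all 394110 spots compared, so its scale and direction are settled, with column medians from -0.00941 to 0. A genome build is not given in the sources used here.

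Mean signals were corrected by normexp (offset 50) and loess within arrays, with control and outlier spots at weight 0 and then left out, and spots of a probe were averaged (limma 3.58.1, R 4.3.3). Of 41174 probes 14304 were left out as dim. Names came from accessions in a RefSeq gene table (22072 probes) or another accession of the probe (142), from symbols (614) and synonyms (501) in the files and, for 1 Trp53 probe, from a synonym in the description. 805 probes kept the file's own name and 17039 had none. For a list, the brightest probe stood for its gene. All 9 arrays were fitted in 1 model (lmFit, eBayes), with no block and Benjamini-Hochberg adjustment over all kept probes at a threshold of 0.05. The fit was tested on simulated data. Precision is limited by the number of arrays, 3 per group.

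The 10 genes and all lists were chosen with earlier results of these data known. Of the lists, genes that pass in any comparison are named, or the 2 with the smallest p where none does. The rule also names the 5 genes most like Cdkn1a. The lists were 7 of p53 targets, regulators of p53, paralogues, DREAM and E2F genes, ATF4 genes and 8 of cell type markers. Alternatives were other background, ratio, normalisation, filter and outlier settings, scan day and replicate number as blocks, and each array left out. Of 3 further probes described only by the full name of 1 of the 10 genes, 2 were kept as measured (Zmat3 and Gadd45a). They were dim and were not counted. Between HDC-A and HDC-M they differed by 0.09 and -0.03, both with overlap. Of marker lists mainly summed and mean levels are given. Figures were drawn with matplotlib 3.10.9.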

Additional observations from a re-analysis of the deposited data

How the results depend on the processing

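No gene of the 10 passed between HDC-S and HDC-M under any of the 22 alternatives, and none of the other p53 targets did, except 1 gene on the first scan day alone. The 4 other targets called in HDC-A against HDC-M became 0 with ratios of the scanner software, the deposited value table, median centring, scaling between arrays, the Cy5 channel alone or the first scan day alone. They became 1 with scan day as a block or only the 2 groups compared, 2 with the replicate block, and 0 to 2 when an array was left out. The 6 called in HDC-S against HDC-A became 3 with ratios of the scanner software, the deposited value table or only the 2 groups compared, 0 under median centring or on the first scan day alone, 1 after scaling, and 3 to 9 without an array. The 8 genes of the 10 that lay apart between HDC-A and HDC-M became 0 under median centring, against 3.71% of kept probes. They became 7 under median centring without HDC-M replicate 3, against 11.7% of kept probes. The counts of genes that lay apart, and the setting without HDC-M replicate 3, were chosen after seeing the data.

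All called probes numbered 387 in HDC-A against HDC-M, 183 in HDC-S against HDC-M and 1412 in HDC-S against HDC-A. In that order they were 18, 7 and 392 with ratios of the scanner software, 16, 7 and 416 in the deposited value table, 2, 5 and 4 under median centring, 54, 39 and 165 after scaling, and 5, 30 and 9 on the first scan day alone. Only the 2 groups compared gave 86, 12 and 740. HDC-A against HDC-M and HDC-S against HDC-M gave 189 and 85 with scan day as a block and 193 and 70 with the replicate block. For HDC-S against HDC-M, no background correction gave 315 and the Cy5 channel alone 13, and the latter gave 632 for HDC-S against HDC-A. Leaving out an array gave 21 to 218, 4 to 189 and 455 to 1389. The first count was 29 without HDC-A replicate 3, 34 without HDC-M replicate 1 and 21 without HDC-M replicate 2. The second was 4 to 13 without HDC-M replicate 1 or 2 or any HDC-S array, and the third 455 to 719 without any HDC-S array or HDC-A replicate 1 or 3. The numbers do not pair the pools: the correlation of same-numbered arrays' deviations from their group means ran from -0.187 to 0.548, and 3 of 9 arrays lay closest to their own number. The replicate block also takes up the scan day, as replicates 1 and 2 were scanned on the first day and replicate 3 on the second. What lowered its counts was not tested. The median of all kept probes moved by -0.11 (HDC-A against HDC-M) and -0.12 (HDC-S against HDC-M) under median centring.

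Sign changes in HDC-S against HDC-M were among small, uncalled values. Under median centring they were Cdkn1a -0.30, Sesn2 -0.12, Mdm2 (A_51_P201346) -0.15, Bbc3 -0.30, Phlda3 -0.47, Trp53 -0.18 (A_52_P491849) and -0.30 (A_52_P781398) and Gadd45a -0.16. After scaling they were Ccng1 0.37 (A_51_P161612) and 0.27 (A_52_P612803), Trp53inp1 (A_51_P175580) 0.41, Mdm2 (A_52_P469842) 0.34 and Trp53 (A_52_P781398) -0.13. Mdm2 (A_52_P469842) and Phlda3 turned to 0.028 and -0.013 with no background correction, 0.057 and -0.020 with ratios of the scanner software, 0.11 and -0.020 in the deposited value table, 0.12 and -0.12 with the Cy5 channel alone, and 0.011 and -0.081 on the first scan day alone. Mdm2 (A_51_P201346) was -0.063 with the Cy5 channel alone. Without an array, Mdm2 (A_52_P469842) ranged from -0.059 to 0.010, Phlda3 from -0.079 to 0.061, and Trp53 from -0.047 to 0.039 (A_52_P491849), -0.041 to 0.064 (A_52_P133016) and -0.030 to 0.13 (A_52_P781398). Crip2 in HDC-A against HDC-M was -0.061 under median centring, and Asns 0.30 after scaling. The causes were not tested. Dim probes, such as A_52_P133016, limit any difference that can be seen.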
